A study of Rattus norvegicus with 78 samples.

Results

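The translation initiation factors examined here are the genes whose symbols on the array begin with Eif1 to Eif6, with the eIF2 alpha kinases (Eif2ak) and the eIF4E-binding proteins (Eif4ebp) included. A gene entered only through a probe set annotated with 1 symbol, and where it had several, through the one of highest mean. The rule found 44 genes, on 45 probe sets, among 14506 genes with such a probe set, and all 44 were tested with no filter on low values. Eif1, Eif3f, Eif3g, Eif3m, Eif4g1, Eif4a3, Eif4e1b, Eif4ebp3, Eif5a2 and Eif2s3y are not analysed here. The RNA came from sperm let out of the cauda epididymis of Fischer 344 rats, hybridised to 1 rat gene array per sample. The tissue is sperm by the labels and testis by the series' title. At the end of exposure there were 20 arrays from rats given corn oil and 20 from rats given 1,2-dibromo-3-chloropropane (DBCP), a soil fumigant toxic to male germ cells, at 5 mg/kg/day. The text of the series gives an exposure of 3 months. After a period of recovery, of a length not given in the sources used here, there were 19 further arrays for corn oil and 19 for DBCP at the same dose. The cauda was punctured, and the sperm pellet was treated with an ammonium chloride lysis buffer. The labels call the samples biological replicates. Nothing further in the labels gives the age of the rats.

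Initiation begins when eIF2, carrying GTP and the initiator methionyl-tRNA, joins the small ribosomal subunit together with eIF1, eIF1A, eIF3 and eIF5. The cap of the mRNA is bound by eIF4E, held on the scaffold eIF4G, while the helicase eIF4A opens the leader with the help of eIF4B and eIF4H. Stress kinases phosphorylate the alpha subunit of eIF2, which then blocks its exchange factor eIF2B, and the eIF4E-binding proteins keep eIF4E from the scaffold. Elongating spermatids store many mRNAs in a repressed state and translate them after transcription has stopped. Mature sperm are thought to translate little or nothing in the cytosol, so the RNA in them is largely left over from spermatogenesis.

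Values are the authors' log2 values per probe set, so a difference of 1 is a doubling, and differences are given with their standard error (SE). The 44 genes had means over the 78 arrays between 5.74 and 9.35. The median of all probe set means was 6.69, and 11 of the 44 genes lay below it. Within groups, the values of Eif2s1 spread most (pooled SD of 0.47), followed by those of Eif2s3 (0.42), Eif1ax (0.40), Eif4h (0.40) and Eif4g2 (0.37). The values of Eif2ak4 spread least (0.11). For Eif3h alone, 2 probe sets were present.

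The arrays held RNA of the labelled cells and of others. All 18 markers of late spermatids lay above the median of the probe set means, with means between 6.75 and 14.13, among them the protamine gene Prm1 at 12.96. Of 24 leukocyte markers, 4 lay below that median and the others reached up to 11.38 (Cd74, the invariant chain of the class II antigen complex). Of 13 epididymal principal cell markers, 6 lay below the median, and no mean exceeded 7.42. Of 9 epididymal basal and clear cell markers 2 lay below it, and Foxi1 reached 8.88. Of 11 markers of stroma, smooth muscle and endothelium 4 lay below it, and Dcn reached 10.51. Of 9 Sertoli and Leydig markers 3 lay below it, and the highest mean was 7.27. Of 6 erythrocyte markers 2 lay below the median, and the hemoglobin gene Hbb reached 11.88. The level of a marker list on an array is the mean of its members' log2 values. The late spermatid level averaged 10.41 ± 0.37 (SD, n = 20) in corn oil and 10.75 ± 0.44 (n = 20) in DBCP rats at the end of exposure, and 10.07 ± 0.24 (n = 19) and 10.06 ± 0.31 (n = 19) after recovery. The leukocyte level averaged 7.75 ± 0.17 and 7.64 ± 0.18 at the end of exposure, and 8.05 ± 0.20 and 7.91 ± 0.18 after recovery. In such bulk samples, fewer cells of a type and less RNA per cell cannot be told apart.

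The results turn on 6 genes, whose promoter windows are shown as RefSeq gives them for build GRCr8, from 250 bases before the start in its promoter table to 30 after it. Gene positions are given on the same build. For Eif4e, Eif2s3, Eif4h and Eif2ak1 the promoter start lies inside the gene bounds given in this report. Motif distances are counted from that promoter start and not from the edge of the gene. Eif2ak1, Eif2s3 and Eif5b rose over recovery under both treatments, and Eif4e fell under both. Eif2s1 and Eif4h fell in DBCP rats, as Eif3b and Eif4a2 did, and were chosen for the highest correlations with the late spermatid level. Of these 6, Eif5b alone kept all its calls with the late spermatid level and with the leukocyte level, each in turn, as a covariate. Capitals mark the motif letters found on either strand.
Eif2ak1: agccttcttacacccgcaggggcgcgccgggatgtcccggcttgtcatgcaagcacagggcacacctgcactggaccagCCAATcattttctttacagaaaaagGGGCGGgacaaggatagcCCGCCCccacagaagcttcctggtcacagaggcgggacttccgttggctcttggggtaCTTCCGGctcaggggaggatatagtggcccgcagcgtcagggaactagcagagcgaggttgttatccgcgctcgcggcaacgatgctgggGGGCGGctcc
Eif2s3: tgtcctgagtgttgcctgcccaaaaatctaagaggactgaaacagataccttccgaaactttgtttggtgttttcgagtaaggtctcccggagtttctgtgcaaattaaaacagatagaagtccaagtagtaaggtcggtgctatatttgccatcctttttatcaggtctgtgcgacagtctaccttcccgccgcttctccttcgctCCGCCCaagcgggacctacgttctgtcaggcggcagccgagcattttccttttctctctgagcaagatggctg
Eif5b: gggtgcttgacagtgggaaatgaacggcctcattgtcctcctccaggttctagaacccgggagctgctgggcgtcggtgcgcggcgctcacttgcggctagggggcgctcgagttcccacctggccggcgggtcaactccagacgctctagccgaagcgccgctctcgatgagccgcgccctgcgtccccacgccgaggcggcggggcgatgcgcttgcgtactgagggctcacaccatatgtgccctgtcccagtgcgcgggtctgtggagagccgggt
Eif4e: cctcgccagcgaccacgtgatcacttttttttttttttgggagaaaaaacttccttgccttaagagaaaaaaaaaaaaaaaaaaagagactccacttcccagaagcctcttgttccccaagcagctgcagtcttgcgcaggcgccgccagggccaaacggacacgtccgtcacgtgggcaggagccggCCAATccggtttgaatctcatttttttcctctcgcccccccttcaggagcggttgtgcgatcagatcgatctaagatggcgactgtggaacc
Eif2s1: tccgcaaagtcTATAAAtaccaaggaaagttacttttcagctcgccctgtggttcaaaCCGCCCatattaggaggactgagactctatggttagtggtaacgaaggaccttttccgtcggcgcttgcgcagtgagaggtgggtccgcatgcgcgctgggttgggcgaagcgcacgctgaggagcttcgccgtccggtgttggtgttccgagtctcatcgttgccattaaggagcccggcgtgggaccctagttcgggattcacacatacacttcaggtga
Eif4h: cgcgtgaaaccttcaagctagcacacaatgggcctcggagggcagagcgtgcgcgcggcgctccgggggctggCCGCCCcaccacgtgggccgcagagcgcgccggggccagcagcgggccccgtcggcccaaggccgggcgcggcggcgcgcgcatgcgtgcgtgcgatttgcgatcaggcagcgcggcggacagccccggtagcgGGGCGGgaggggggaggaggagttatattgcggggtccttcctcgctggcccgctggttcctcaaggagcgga
The windows lie at chr12:15858135-15858414 (Eif2ak1, minus strand), chrX:62933670-62933949 (Eif2s3, minus strand), chr9:47718456-47718735 (Eif5b, plus strand), chr2:229740503-229740782 (Eif4e, plus strand), chr6:103405630-103405909 (Eif2s1, plus strand) and chr12:27719442-27719721 (Eif4h, plus strand). The motifs searched were the ETS core CCGGAAG, the cAMP response element TGACGTCA, the CCAAT box CCAAT, the GC box GGGCGG and the TATA box TATAAA, each also as its reverse complement. Eif2ak1 alone of these 6 windows held the ETS core, and it also held a CCAAT box and 3 GC boxes. Eif2s1 held the letters TATAAA 239 bases before its start and 1 GC box 192 bases before it, and Eif4e a CCAAT box 62 bases before its start. Eif2s3 held 1 GC box and Eif4h 2, while Eif5b held none of these letters. Of the 44 genes, 39 had an entry in the table, and Eif3e, Eif3h, Eif4b, Eif4e3 and Eif4ebp1 are named only. The ETS core stood in 16 of the 39 windows (41.0%), against 8.41% of all 33469 promoters in the table, and the GC box in 28 (71.8%), against 32.2%. The CCAAT box stood in 12 (30.8%, against 36.2%), the TATA box in 2 (5.13%, against 13.7%; Eif2s1 and Eif4a2), and the cAMP response element in 0 (against 1.78%). The members count with 1 window per gene, while the 33469 promoters are all entries with a full window, on the array or not. The shares are therefore over unlike sets. A match describes the letters and no binding was measured.

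Without the toxicant, the arrays of recovery set against those of the end of exposure show how these transcripts differed between the collection times. Members of most roles rose: 14 of the 44 genes, among them the gamma subunit of eIF2, the scaffold Eif4g2, 5 of 10 eIF3 subunits and the heme-regulated kinase Eif2ak1. The cap-binding protein Eif4e was the single member that fell. The 14 rises are 31.8% of the members, where 11.5% of all 29214 probe sets rose in limma's test (adjusted p under 0.05 over all probe sets), and the fall is 1 of 44, where 12.8% of all probe sets fell. The median difference was 0.09 over the members and -0.04 over all probe sets, and 32 members lay above 0, where 43% of all genes did. These medians were -0.02 and 0.01 with the leukocyte level as a covariate.

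Eif2s3, at chrX:62910292-62933936, encodes the eIF2 subunit that binds GTP and the initiator tRNA. On corn oil arrays it ran from 6.70 to 8.03 (median 7.25) at the end of exposure and from 7.83 to 8.90 (median 8.24) after recovery. Of the 19 recovery arrays, 14 lay above the highest earlier array, and the groups overlapped by the rest. The rise was 0.89 ± 0.13, or 1.85-fold (limma adjusted p = 1.54e-06), with 19 of 19 recovery arrays above the earlier mean. The alpha and beta subunits of eIF2 did not pass: Eif2s1 had a difference of -0.05 ± 0.15 and Eif2s2 of 0.12 ± 0.09. Eif2a, an alternative carrier of initiator tRNA that is no subunit of eIF2, rose by 0.29 ± 0.06 (limma adjusted p = 0.000251), while Eif2d, which can also bring tRNA to the ribosome, had -0.05 ± 0.05.

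Eif4g2, at chr1:174616102-174628252, encodes a scaffold that lacks the binding site for eIF4E and serves initiation without the cap. Its values ran from 7.57 to 9.13 (median 8.36) at the end of exposure and from 8.26 to 9.56 (median 9.01) after recovery. The ranges overlapped over most of their length, but the bulk of the recovery arrays stood high. The rise was 0.61 ± 0.12, or 1.52-fold (limma adjusted p = 8.13e-05), on 18 of 19 arrays. Its relative Eif4g3, which carries the eIF4E site and is needed in mice for male meiosis, had 0.07 ± 0.11.

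In the eIF3 complex, which bridges mRNA and small subunit, all 10 measured subunits had differences above 0, and 5 rose. Eif3h rose by 0.50 ± 0.10 (limma adjusted p = 0.000114), from a median of 7.67 on the earlier arrays to 8.16. Its second, dimmer probe set gave 0.12 ± 0.08 (limma adjusted p = 0.275), so the probe sets of this gene disagree. Eif3e rose by 0.46 ± 0.09, the loosely bound subunit Eif3j by 0.38 ± 0.10 and the core subunit Eif3a by 0.37 ± 0.08 (limma adjusted p between 0.000227 and 0.00341). Eif3d, which in human cells can itself bind the cap of some mRNAs, rose by 0.18 ± 0.07 with a limma adjusted p of 0.0485. That call rests on a narrow margin: it was lost on leaving out any 1 of 23 of the 39 arrays (limma adjusted p up to 0.0843). Eif3b, Eif3c, Eif3i, Eif3k (0.07 ± 0.06) and Eif3l had values between 0.03 and 0.15 and did not pass.

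Among the scanning and joining factors, Eif1ax, the X-linked eIF1A gene that sets scanning and start codon choice, rose by 0.48 ± 0.13 (limma adjusted p = 0.00354). Eif5b, the GTPase of subunit joining, rose by 0.25 ± 0.05 (limma adjusted p = 5.5e-05). It ran from 6.95 to 7.35 (median 7.16) before and from 7.06 to 7.64 (median 7.41) after recovery, with 12 of 19 arrays above the highest earlier one. The related symbols Eif1a (0.13 ± 0.07), Eif1ad (-0.05 ± 0.05) and Eif1b (0.03 ± 0.06) did not pass, nor did Eif5, which triggers GTP hydrolysis on eIF2 (-0.05 ± 0.09). Eif5a, which helps ribosomes over difficult peptide bonds, had 0.18 ± 0.08 (limma adjusted p = 0.0754) and Eif6, which keeps the large subunit apart, -0.04 ± 0.04.

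The helicase Eif4a1 rose by 0.32 ± 0.08 (limma adjusted p = 0.00242) and its cofactor Eif4b by 0.34 ± 0.06 (limma adjusted p = 5.94e-05), while the paralog Eif4a2 (-0.05 ± 0.08) and the cofactor Eif4h (0.01 ± 0.13) did not pass. Eif4e, at chr2:229736309-229772628, fell by 0.27 ± 0.09, or 1.21-fold (limma adjusted p = 0.0159). It ran from 7.93 to 8.79 (median 8.19) at the end of exposure and from 7.67 to 8.43 (median 7.97) after recovery. Of the 19 recovery arrays, 8 lay below the lowest earlier array and the others overlapped. The other cap-binding genes did not pass: Eif4e2, whose protein represses translation from the cap, had 0.10 ± 0.10 and Eif4e3 0.09 ± 0.05. Of the eIF4E-binding proteins, Eif4enif1, which shuttles eIF4E and represses bound mRNAs, rose by 0.24 ± 0.06 (limma adjusted p = 0.00132), while Eif4ebp1 had -0.03 ± 0.04 and Eif4ebp2 0.13 ± 0.07.

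Of the 4 eIF2 alpha kinases, Eif2ak1, the kinase that responds to lack of heme, rose. At chr12:15824431-15858266, it ran from 6.63 to 7.37 (median 7.07) before and from 7.20 to 7.91 (median 7.50) after recovery, and 12 of 19 recovery arrays lay above the highest earlier one. The rise was 0.42 ± 0.08, or 1.33-fold (limma adjusted p = 5.44e-05). Eif2ak2, the kinase activated by double-stranded RNA, had 0.07 ± 0.04, Eif2ak3 of the endoplasmic reticulum 0.05 ± 0.05, and Eif2ak4, which senses uncharged tRNA, 0.01 ± 0.04. No subunit of the exchange factor eIF2B passed, with values between -0.10 and 0.01, among them Eif2b1 at -0.05 ± 0.04.

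In DBCP rats the same comparison gave a mixed picture. Of the 44 genes, 4 rose (Eif2s3, Eif2ak1, Eif5b and Eif2ak2) and 5 fell (Eif2s1, Eif4e, Eif4h, Eif3b and Eif4a2). After quantile normalization 7 rose and 5 fell. The number that fell was 3 without DBCP replicate 13 of the end of exposure and 8 without DBCP replicate 7 of the recovery. In all, 7.28% of the probe sets rose and 6.19% fell, beside 9.1% and 11.4% of the members. The median difference was 0.03 over the members and 0.01 over all probe sets. No array is shared with the corn oil comparison, but both set the same collection times against each other. Recovery, the age of the rats and anything else that differed between the collections cannot be told apart in either.

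Eif2s1, at chr6:103405880-103430549, encodes the eIF2 subunit that the stress kinases phosphorylate. Its values ran from 8.13 to 10.89 (median 9.68) at the end of exposure and from 8.47 to 9.64 (median 9.04) after recovery. Every recovery array lay below the earlier mean, within a range that the earlier arrays enclosed. The fall was 0.62 ± 0.15 on the log2 scale, or 1.54-fold (limma adjusted p = 0.00161). Eif2s3 moved the other way, from a range of 6.88 to 9.10 (median 7.57) to one of 7.20 to 8.87 (median 8.01), a rise of 0.55 ± 0.13 on 17 of 19 arrays (limma adjusted p = 0.00203). The beta subunit Eif2s2 had 0.04 ± 0.09.

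Eif4e fell by 0.48 ± 0.09, or 1.39-fold, the smallest p among the members in DBCP rats (limma adjusted p = 2.78e-05). It ran from 7.88 to 9.58 (median 8.46) before and from 7.71 to 8.25 (median 8.00) after recovery, and 19 of 19 recovery arrays lay below the earlier mean. Eif4e2 (-0.27 ± 0.10, limma adjusted p = 0.0668) and Eif4g3 (-0.29 ± 0.11, limma adjusted p = 0.068) did not pass. Eif4h, at chr12:27719527-27736350, ran from 8.04 to 9.82 (median 8.59) before and from 7.71 to 9.59 (median 8.29) after recovery. The groups overlapped nearly throughout, with 4 of 19 recovery arrays below the lowest earlier one. The fall was 0.45 ± 0.13 (limma adjusted p = 0.00883). The helicase Eif4a2 fell by 0.24 ± 0.08 (limma adjusted p = 0.025) and the eIF3 core subunit Eif3b by 0.30 ± 0.09 (limma adjusted p = 0.0227). Both calls were lost without DBCP replicate 13 of the end of exposure (differences of -0.20 and -0.24, limma adjusted p = 0.054 and 0.0531).

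Eif2ak1 rose by 0.24 ± 0.08 (limma adjusted p = 0.0227), Eif5b by 0.20 ± 0.05 (limma adjusted p = 0.00154) and Eif2ak2 by 0.18 ± 0.04 (limma adjusted p = 0.00143). Eif2ak2 ran from 6.09 to 6.61 (median 6.43) before and from 6.42 to 6.88 (median 6.58) after recovery, with both medians below that of all probe set means. Its 19 recovery arrays all lay above the earlier mean. The remaining kinases had 0.13 ± 0.05 (Eif2ak3, limma adjusted p = 0.0726) and 0.07 ± 0.04 (Eif2ak4). Of the 9 other eIF3 subunits, which lay between -0.22 and 0.22, none passed, nor did any subunit of eIF2B (-0.14 to 0.08).

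**Figure D1:**
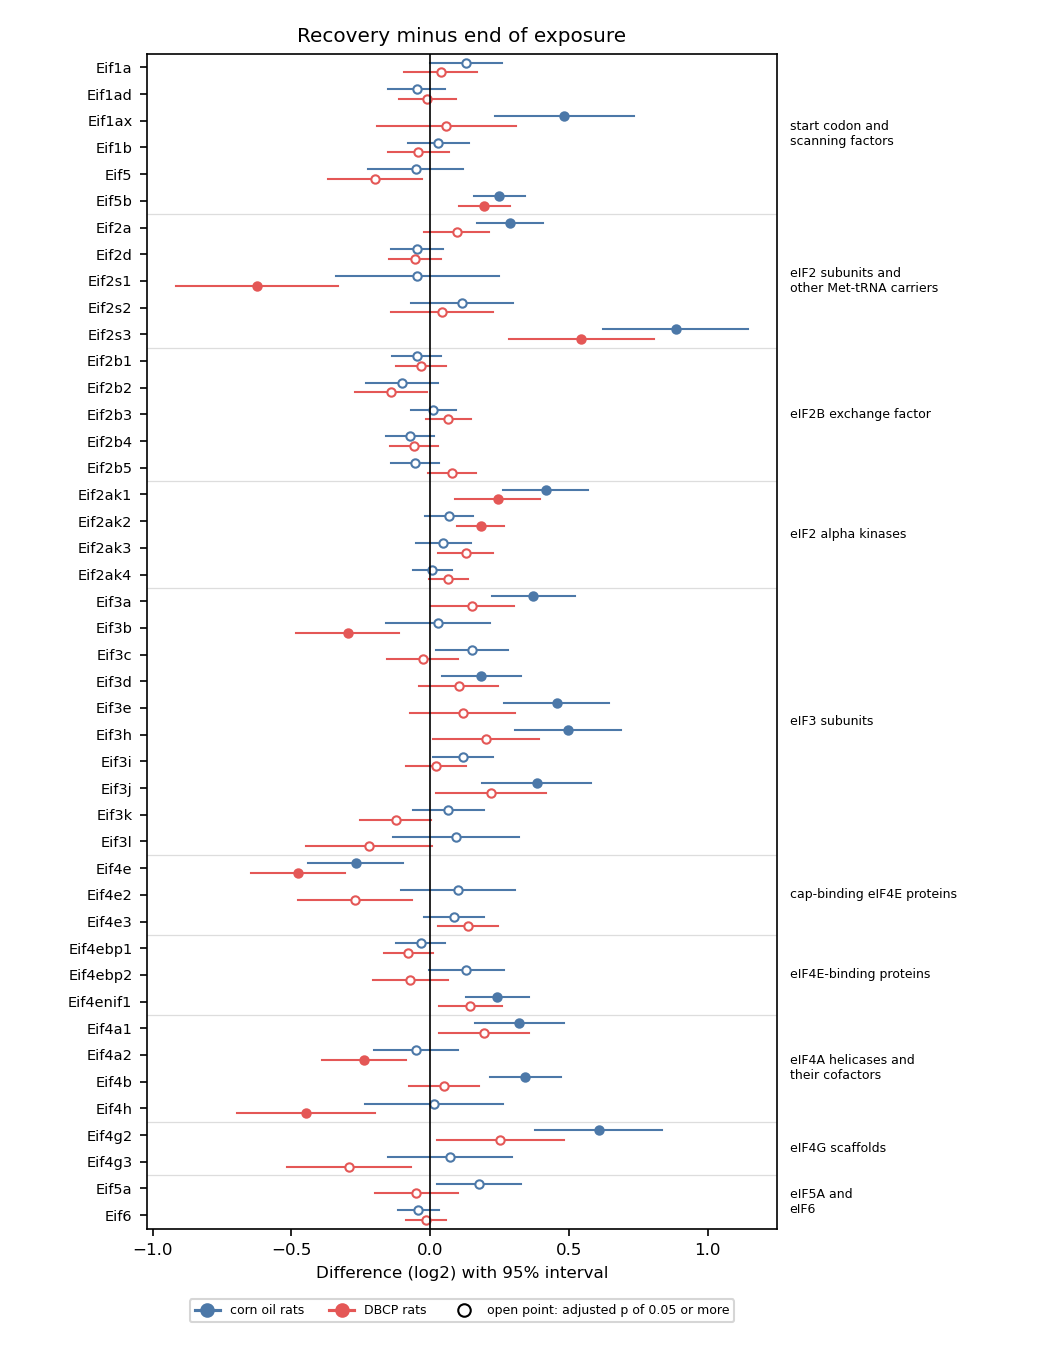
Recovery minus end of exposure for the 44 genes by role, as log2 differences with 95% intervals. Blue marks corn oil rats (19 against 20 arrays) and red DBCP rats (19 against 20), and filled points passed limma's test. Eif2s3, Eif2ak1 and Eif5b lie right of 0 and Eif4e left of 0 under both treatments, and the falls of Eif2s1, Eif4h, Eif3b and Eif4a2 passed in DBCP rats.

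Across the treatments, 3 genes rose in both (Eif2s3, Eif2ak1 and Eif5b), 1 fell in both (Eif4e), 11 passed in corn oil rats alone, 5 in DBCP rats alone and 24 in neither. Passing under 1 treatment does not show that the treatments differed. The test of that difference is the interaction below, where no member passed.

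**Figure D2:**
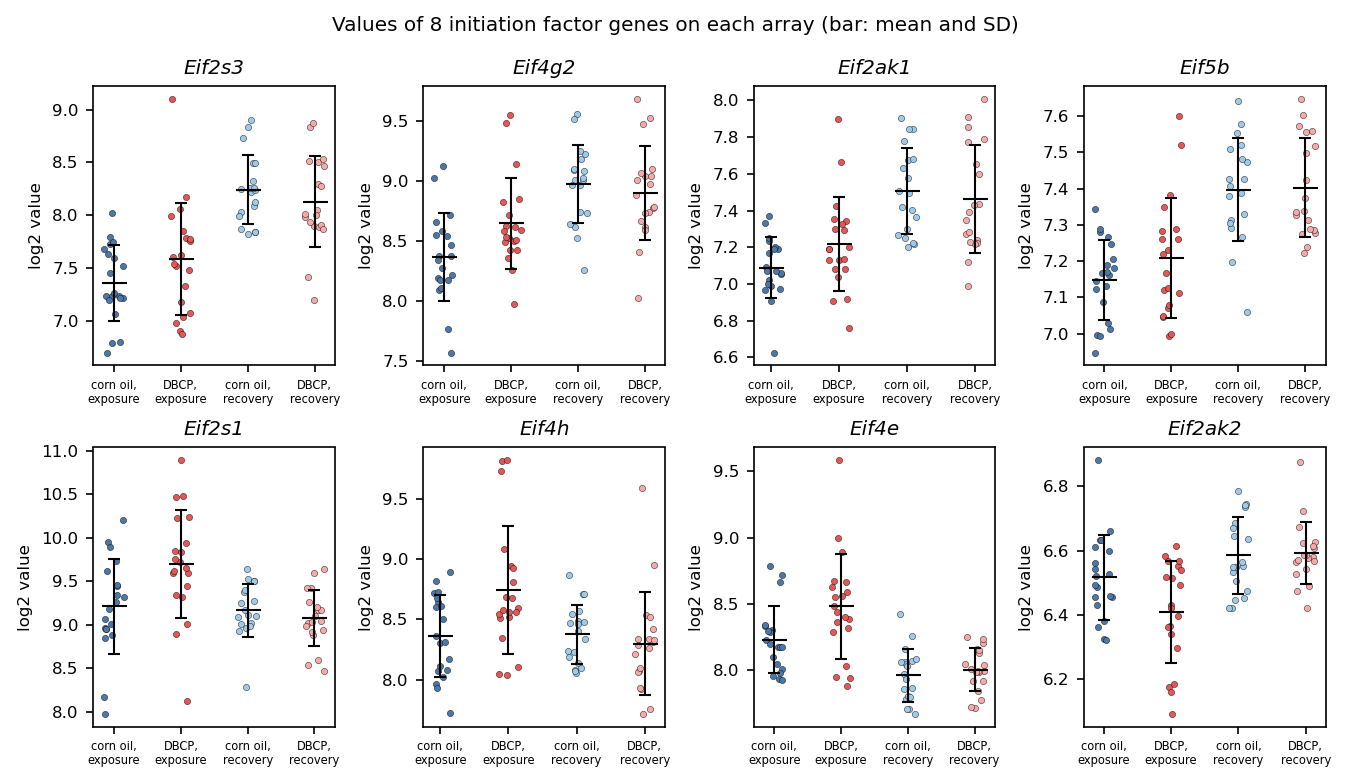
Log2 values of 8 genes on every array of the 4 groups, with the mean and SD of each group. The recovery groups stand above the exposure groups for Eif2s3, Eif2ak1 and Eif5b and below them for Eif4e, and for Eif2s1 and Eif4h the DBCP exposure group stands above the other 3 with wide overlap.

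At the end of exposure, 20 DBCP arrays were set against 20 corn oil arrays, to ask whether the toxicant had changed these transcripts. No member passed, as no probe set did (0.0% of 29214). Most members nevertheless had positive values: 38 of 44 lay above 0, with a median of 0.10, against -0.02 over all probe sets and 44.7% of all genes above 0. At an unadjusted p under 0.05 there were 16 members, 15 of them higher in DBCP rats, where 11.6% of all probe sets (3386) had such a p. All 10 eIF3 subunits lay above 0 (median 0.14), as did the 4 helicases and cofactors (0.17) and both scaffolds (0.25 and 0.28). The eIF2 alpha kinases had a median of -0.02.

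Of the 5 members of smallest p, Eif2s1 ran from 7.97 to 10.20 (median 9.22) on the corn oil and from 8.13 to 10.89 (median 9.68) on the DBCP arrays. The groups overlapped widely, with 5 DBCP arrays above the highest corn oil array. The difference was 0.49 ± 0.15, or 1.40-fold (limma adjusted p = 0.161), with 17 of 20 DBCP arrays above the corn oil mean. Eif4h had 0.38 ± 0.12, Eif4e2 0.30 ± 0.10, Eif4e 0.25 ± 0.08 and Eif4b 0.19 ± 0.06 (limma adjusted p between 0.186 and 0.214). Eif2ak2 was the single member with an unadjusted p under 0.05 that lay lower, at -0.11 ± 0.04 (limma adjusted p = 0.28).

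The late spermatid markers moved alongside: 18 of 18 had values above 0 (median 0.37), and the late spermatid level was highest on DBCP arrays of the end of exposure. Of the 24 leukocyte markers 21 lay below 0 (median -0.13), as did all 6 erythrocyte markers (median -0.20). None of these markers passed limma's test here. With the late spermatid level as a covariate the median of the members was 0.04 and 0 passed. With the leukocyte level it was 0.18 and 19 members passed, all higher in DBCP rats. In that fit 3682 of all probe sets passed, higher and lower together. Without 6 arrays whose limma array weight was under 0.5, the median of the members was 0.05 in place of 0.10. Of these arrays, DBCP replicates 2, 13 and 20 of the end of exposure had late spermatid levels of 11.52, 11.74 and 11.20, and the other 3 came after recovery.

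After recovery, the question was whether a difference between 19 DBCP and 19 corn oil arrays remained. No member passed (0.0% of all probe sets did), and the lowest limma adjusted p was 0.983. Of the 44 genes 14 lay above and 30 below 0, with a median of -0.03. Of all genes 54.3% lay above 0, and the median over all probe sets was 0.01. One member, Eif2b4, a regulatory subunit of the exchange factor, had an unadjusted p under 0.05 (0.10 ± 0.04), where 3.71% of all probe sets did. It ran from 6.26 to 6.76 (median 6.50) in corn oil and from 6.28 to 7.00 (median 6.58) in DBCP rats, so the groups overlapped almost fully. Eif2a (-0.11 ± 0.06), Eif4b (-0.11 ± 0.06), Eif2b3 (0.07 ± 0.04) and Eif2b5, the catalytic subunit of eIF2B (0.07 ± 0.04), followed by p. All 5 subunits of eIF2B lay above 0 (median 0.07) and all 5 eIF2 subunits and carriers below it (median -0.09, from -0.11 to -0.007). Of the eIF3 subunits, 1 lay above and 9 below 0 (median -0.07). None of these passed, and a difference between roles was not tested. The median of the 44 was 0.04 with the leukocyte level as a covariate, and 0 passed. Of the 24 leukocyte markers 19 lay below 0 here (median -0.15), as did 5 of the 6 erythrocyte markers (median -0.29), and 0 of either list passed. No member's 95% interval reached beyond 0.39 in either direction.

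**Figure D3:**
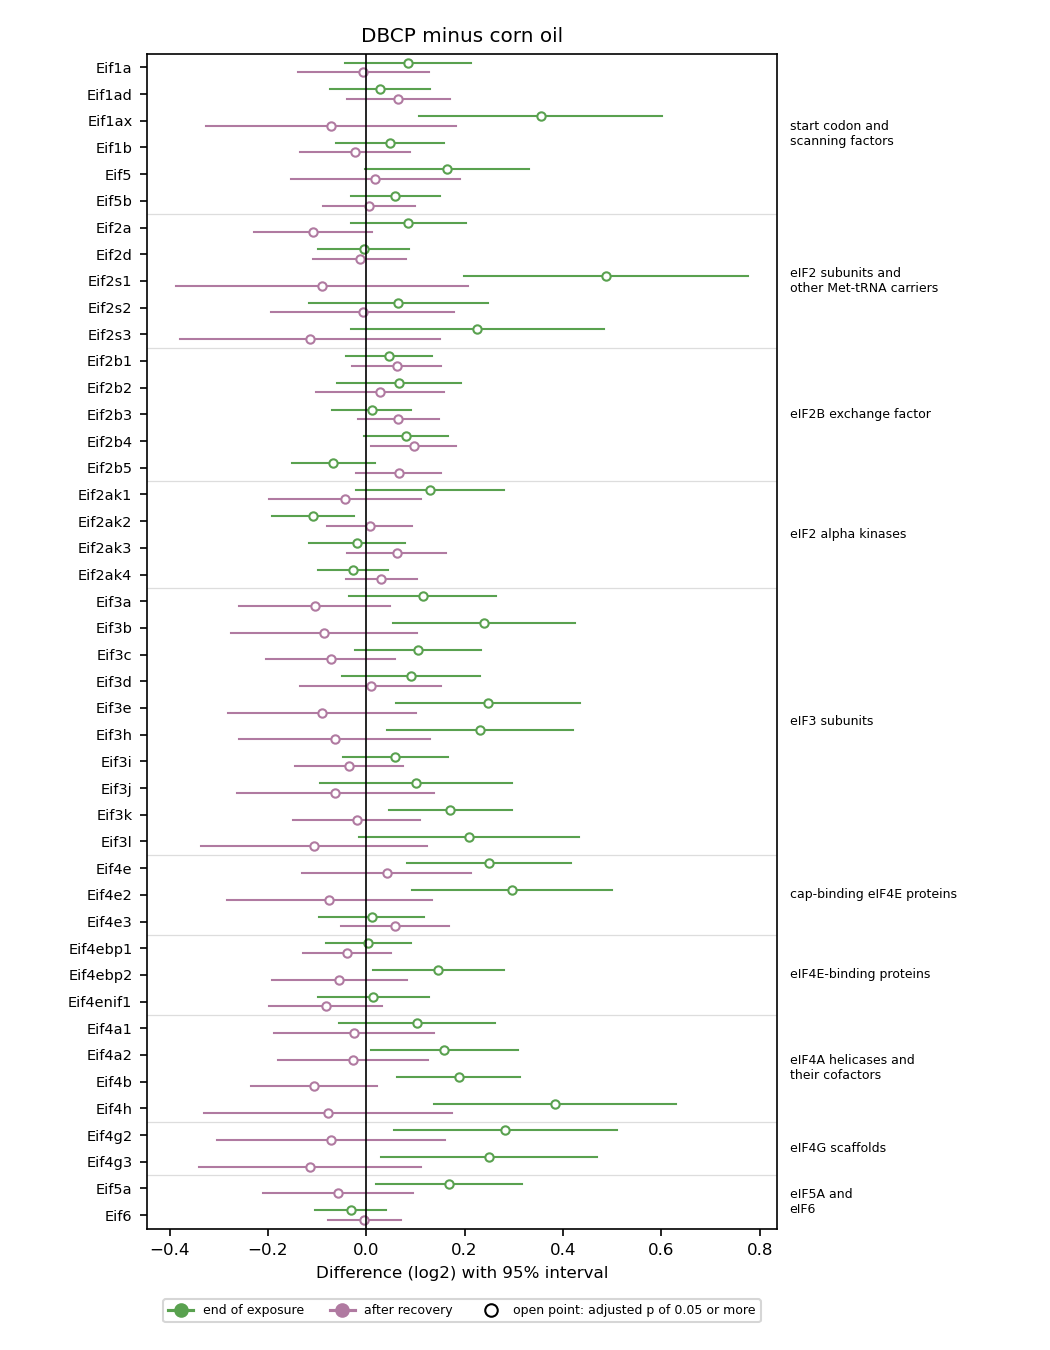
DBCP minus corn oil for the 44 genes by role, as log2 differences with 95% intervals, in green at the end of exposure (20 against 20 arrays) and in purple after recovery (19 against 19). All points are open, since none passed limma's test. The green points lie mostly right of 0 (38 of 44) and the purple points mostly left (30 of 44).

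The interaction term tested whether the DBCP difference was the same at both times, which is also the test of a time effect that differs between treatments. No member passed (0.0% of all probe sets), with a lowest limma adjusted p of 0.454. Of the 44 genes 34 lay below 0, where 54.8% of all genes lay above it. The median was -0.15 against 0.03 over all probe sets, and 16 members had an unadjusted p under 0.05 (10.9% of all probe sets). Eif4b had the smallest p (-0.29 ± 0.09), followed by Eif2s1 (-0.58 ± 0.21), Eif4h (-0.46 ± 0.18), Eif4e2 (-0.37 ± 0.15) and Eif3e (-0.34 ± 0.13). All 10 eIF3 subunits lay below 0 (median -0.20). The 18 late spermatid markers did too (median -0.38).

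The marker levels also moved over recovery. Of the 18 late spermatid markers, 11 fell in corn oil rats and 15 in DBCP rats, and none rose. Of the 24 leukocyte markers, 13 rose and 1 fell in corn oil rats, and 15 rose and 1 fell in DBCP rats. The 5 other marker lists cover epithelium, stroma, red cells and testicular somatic cells. At most 3 members of a list rose and at most 3 fell. In corn oil rats 3 of 9 epididymal basal and clear cell markers rose and 1 fell. There 3 of 9 Sertoli and Leydig markers fell. In DBCP rats 1 marker of each of these lists fell. The basal and clear cell level went from 7.15 ± 0.14 (SD) to 7.35 ± 0.14 in corn oil rats. In DBCP rats it went from 7.29 ± 0.14 to 7.35 ± 0.14. The Sertoli and Leydig level went from 6.77 ± 0.06 to 6.66 ± 0.06 in corn oil rats. In DBCP rats it went from 6.80 ± 0.07 to 6.69 ± 0.08. With the late spermatid level as a covariate, 4 of the 5 falls in DBCP rats changed sign, to 0.13 for Eif2s1 (limma adjusted p = 0.339), 0.11 for Eif3b (0.307), 0.01 for Eif4a2 (0.918) and 0.22 for Eif4h (0.0308). The fall of Eif4e was -0.20 in DBCP rats (limma adjusted p = 0.0789) and -0.13 in corn oil rats (limma adjusted p = 0.147), and the rise of Eif2ak2 in DBCP rats was 0.10 (limma adjusted p = 0.127), so none of these passed. With the leukocyte level as a covariate, 2 rises in corn oil rats still passed, Eif2s3 at 0.46 (limma adjusted p = 0.0268) and Eif5b at 0.20 (limma adjusted p = 0.0245). Eif2ak1 then had 0.18 (limma adjusted p = 0.162), Eif4g2 0.29 (limma adjusted p = 0.151) and Eif4e -0.27 (limma adjusted p = 0.11). In DBCP rats, with that covariate, the rises of Eif2s3 (0.15, limma adjusted p = 0.37) and Eif2ak1 (0.03, limma adjusted p = 0.837) no longer passed, while Eif5b (0.15, limma adjusted p = 0.0244) and Eif2ak2 (0.19, limma adjusted p = 0.00236) did. The late spermatid and leukocyte levels both differed in mean between the groups compared. The part of either cell type in these differences was not tested.

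Among arrays of the same group (78 arrays, group means removed), many members varied along with both marker levels. With the late spermatid level 26 members correlated positively and 6 negatively (two-sided permutation test within groups, adjusted over all probe sets), where 16.1% of all probe sets did so positively and 41.4% negatively. With the leukocyte level 24 did positively and 0 negatively, against backgrounds of 20.0% and 37.9%. The median r of the members was 0.32 and 0.34, against -0.18 and -0.16 over all probe sets. The background depended on the scaling. After quantile normalization these medians were 0.25 and 0.32, against -0.03 and -0.02. After centring on array medians they were 0.43 and 0.47, against -0.05 and -0.05. After centring on array medians 32 passed positively and 1 negatively with the late spermatid level, and after quantile normalization 20 and 3. By Spearman's rho 20 passed positively and 3 negatively with the late spermatid level, and 26 and 0 with the leukocyte level. The 2 marker levels correlated with each other at r = 0.16, and values from 1 array share its labelling and scaling. The members gave 88 of the 58386 relations computed.

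The members closest to the late spermatid level were Eif4h (r = 0.85, rho = 0.81), Eif2s1 (r = 0.82, rho = 0.81), Eif4g3 (r = 0.80, rho = 0.74), Eif4e2 (r = 0.77, rho = 0.65) and Eif3b (r = 0.70, rho = 0.59). Each had an unadjusted permutation p of 1e-05 for r and rho, the smallest that 100000 resamples can give, and an adjusted p of 7.4e-05 for r. Without the 2 arrays farthest from the median of the level, r was between 0.63 and 0.84 for these 5. The most negative were Eif2ak4 (r = -0.55, rho = -0.53, adjusted permutation p = 7.4e-05 for r), Eif2d (r = -0.34, rho = -0.27), Eif2ak2 (r = -0.34, rho = -0.28), Eif2ak3 (r = -0.31, rho = -0.20) and Eif2b3 (r = -0.30, rho = -0.23). Of the last 4, Eif2ak3 and Eif2b3 did not pass by rho (adjusted permutation p = 0.136 and 0.0934). Thus 3 of the 4 eIF2 alpha kinases correlated negatively with the late spermatid level on the deposited scale, where centring on array medians left 1 negative member in all, and 9 of 10 eIF3 subunits correlated positively. For Eif2ak4, r was -0.31 after that centring.

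With the leukocyte level the highest were Eif5a (r = 0.62, rho = 0.59), Eif2s3 (r = 0.62, rho = 0.63), Eif4enif1 (r = 0.61, rho = 0.64), Eif2ak1 (r = 0.59, rho = 0.56) and Eif3h (r = 0.58, rho = 0.62), each with an adjusted permutation p of 8.6e-05 for r. Without the 2 farthest arrays r stayed between 0.55 and 0.59. The lowest were Eif1ad (r = -0.14), Eif3i (-0.12), Eif2d (-0.11), Eif2ak4 (-0.07) and Eif2ak3 (-0.07), none of which passed. Of the 14 genes that rose in corn oil rats, 13 correlated positively with the leukocyte level, the exception being Eif5b (r = 0.21). With the late spermatid level 10 did, where 20.0% and 16.1% of all probe sets correlated positively with these levels. For these 10 genes, r with the late spermatid level ran from 0.29 (Eif3e) to 0.53 (Eif4b). With the low-weight arrays left out it ran from -0.001 (Eif2a) to 0.34 (Eif4b). For the 13 genes, r with the leukocyte level then ran from 0.25 (Eif2a) to 0.62 (Eif2s3). All 5 genes that fell in DBCP rats correlated positively with the late spermatid level (r from 0.52 to 0.85). Without the low-weight arrays r ran from 0.28 (Eif4a2) to 0.79 (Eif4h), with 0.32 for Eif4e. Among those arrays are DBCP replicates 2, 13 and 20 of the end of exposure, the group from which the falls are counted. Eif4e had r = 0.01 with the leukocyte level.

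**Figure D4:**
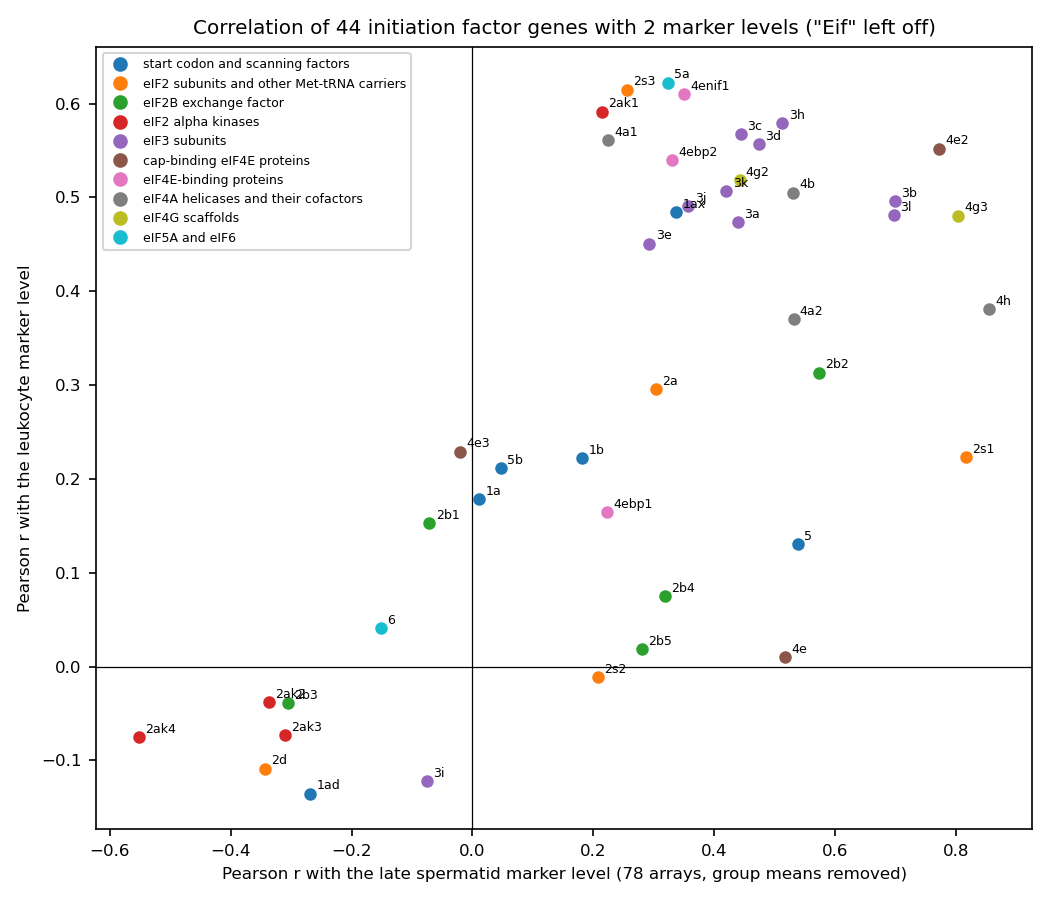
Pearson r of each of the 44 genes with the late spermatid level (horizontal) and the leukocyte level (vertical) over 78 arrays after removal of group means, coloured by role. Eif4h, Eif2s1 and Eif4g3 lie at the far right, Eif5a, Eif2s3 and Eif4enif1 at the top, and Eif2ak4 at the far left.

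**Figure D5:**
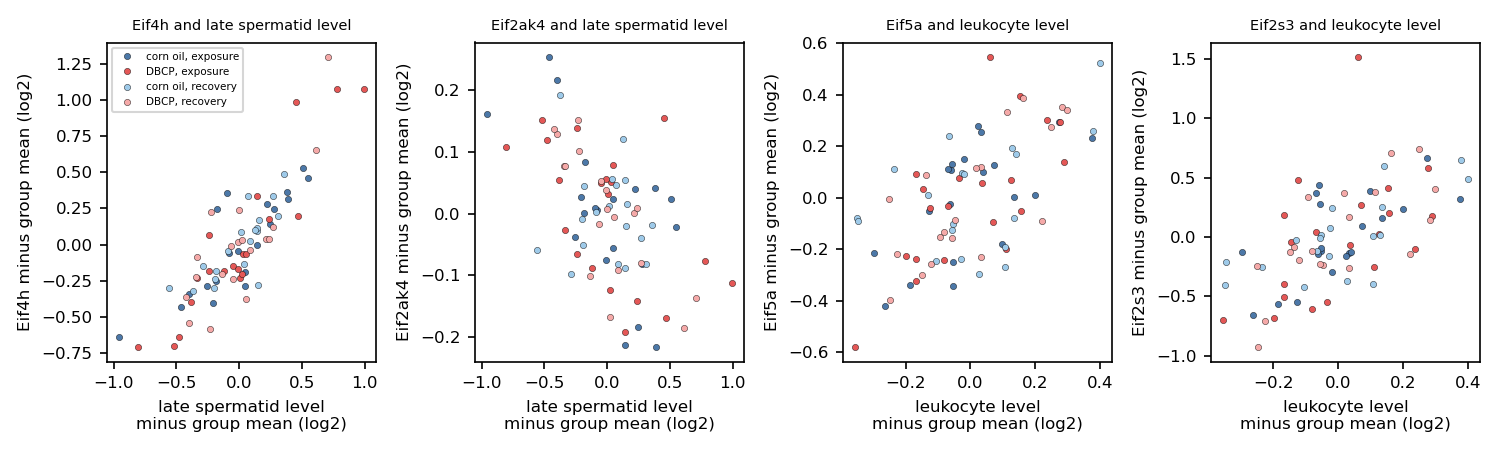
Values of Eif4h and Eif2ak4 against the late spermatid level, and of Eif5a and Eif2s3 against the leukocyte level, all as log2 deviations from the group mean, with 1 point per array and colours for the 4 groups. Eif4h climbs with the late spermatid level (r = 0.85) and Eif2ak4 declines (r = -0.55).

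The result depended on 6 arrays and on the sets of replicate numbers in part. Without the 6 arrays of low weight, 10 members correlated with the late spermatid level in place of 32 (9 positively and 1 negatively). The median r was 0.08 in place of 0.32 over the members, and -0.11 in place of -0.18 over all probe sets. Eif4h (r = 0.79), Eif2s1 (0.77) and Eif2ak4 (-0.56) changed little. Eif4g3 went from 0.80 to 0.70, Eif4e2 from 0.77 to 0.63 and Eif3b from 0.70 to 0.52. Other eIF3 subunits fell further, such as Eif3c from 0.44 to 0.13 and Eif3e from 0.29 to 0.03. The labels number the replicates 1 to 20 and give no meaning to the numbers. In numbers 1 to 10 alone 13 members rose over recovery in corn oil rats, and in numbers 11 to 20 alone 1 did, where 4768 and 385 of all probe sets passed. That gene was Eif2s3, with rises of 1.01 and 0.76 in the 2 sets (limma adjusted p = 3.97e-05 and 0.0476). In DBCP rats 6 rose and 1 fell in the first set, and 0 rose and 3 fell in the second, where 3035 and 505 of all probe sets passed. The fall of Eif4e passed in both (-0.46 and -0.49, limma adjusted p = 0.0117 and 0.0218). That of Eif2s1 was -0.51 and -0.74 (limma adjusted p = 0.122 and 0.0328), and the rise of Eif2s3 in DBCP rats was 0.80 and 0.29 (limma adjusted p = 0.000639 and 0.598).

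The other parts of the translation machinery, 56 measured genes of 68 listed, had 0 calls in both DBCP comparisons and the interaction. Over recovery, Eef1a1, which brings aminoacyl-tRNA to the ribosome, rose in both treatments (0.37 ± 0.07 and 0.23 ± 0.07). Its exchange factor subunit Eef1d fell in both (-0.33 ± 0.08 and -0.45 ± 0.08), and Eef1g fell in DBCP rats (-0.30 ± 0.08), which makes 1 rise and 1 fall in corn oil and 1 rise and 2 falls in DBCP rats among 9 elongation genes. Of 5 termination and recycling genes, 3 rose in corn oil rats, among them Abce1, which splits ribosomes after termination (0.48 ± 0.07), Gspt1 (0.46 ± 0.10) and the release factor Etf1 (0.26 ± 0.08). In DBCP rats Abce1 (0.27 ± 0.07) and Mcts1 (0.10 ± 0.03) rose.

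Of 6 poly(A)-binding proteins and partners, 2 fell in corn oil rats, Pabpc2 (-0.38 ± 0.14) and Pabpc6 (-0.37 ± 0.13). In DBCP rats 3 fell, Pabpc2 (-0.59 ± 0.14), Pabpc6 (-0.59 ± 0.13) and Paip2, which displaces the poly(A)-binding protein (-0.49 ± 0.11). Of 15 genes that signal to the cap through mTOR and the MNK kinases, 6 rose and 1 fell in corn oil rats, with the smallest p for Pdcd4, an inhibitor of eIF4A (0.92 ± 0.13), Mknk1, which phosphorylates eIF4E (0.25 ± 0.04), and the S6 kinase Rps6kb1 (0.26 ± 0.05). In DBCP rats 4 rose and 2 fell: Rps6kb1 rose by 0.28 ± 0.05 and Pdcd4 by 0.52 ± 0.13, and Tsc2, which restrains mTOR, had -0.16 ± 0.04, a fall. Of 11 genes downstream of eIF2 phosphorylation 0 passed in corn oil rats, with 0.02 ± 0.05 for the transcription factor Atf4 and -0.09 ± 0.04 for Ddit4, and 1 fell in DBCP rats, the asparagine synthetase Asns (-0.37 ± 0.09). Of 10 other helpers and repressors, 3 rose in each treatment, with the helicase gene Ddx3x at 0.44 ± 0.08 and 0.24 ± 0.08. Fmr1 (0.22 ± 0.06) and Bzw2 (0.15 ± 0.05) rose in corn oil rats and Cyfip1 (0.15 ± 0.04) in DBCP rats, where 2 of the list fell, among them Abcf1 (-0.21 ± 0.06). In this paragraph and the one before, rises and falls passed limma's test with adjustment over all probe sets.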

How the data were processed

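The deposited log2 values were used as the authors gave them, for 29214 probe sets on each of 78 arrays, with no value missing (0). The submitters' processing notes name limma, and the background correction and normalization were not given in the sources used here. Array medians lay between 6.55 and 6.75, and no further scaling was applied. Precision is limited by how many arrays there are. The platform annotation gave 1 symbol to 15310 probe sets, several to 323 and none to 13581. Members, lists and tests were chosen with earlier results of these data known.

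One model with a mean per group was fitted over the 78 arrays with limma 3.58.1 (R 4.3.3), with 5 contrasts and Benjamini-Hochberg adjustment over all probe sets. The threshold was 0.05. Correlations used residuals from group means, 100000 resamples within groups (10000 in the alternatives) and adjustment over all probe sets for each level, in place of the planned adjustment over the members. Counts of arrays are those beyond the mean of the other group. Both steps were tested on simulated data.

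Named genes were those passing (where more than 12 passed, the 8 largest rises and falls; the other 6 rises in corn oil rats were added after their values were seen), the 5 of smallest p where none passed, the brightest of each role, paralogs, up to 3 passing of other lists, and the 5 highest and lowest r.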

Additional observations from a re-analysis of the deposited data

How the results depend on the processing

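The counts of members that passed stayed within 1.5 times of those reported under quantile normalization, centring on the array median, a filter on dim probe sets, 1 probe set per gene, the mean over a gene's probe sets, a trended robust prior and fits on only the groups compared. All 24 calls over recovery held under both scalings, array weights and removal of the 6 arrays of low weight. With only the groups compared in the fit, Eif2ak1, Eif3b and Eif4a2 did not pass in DBCP rats (limma adjusted p between 0.0588 and 0.0664). With array weights 16 members passed in DBCP rats (7 rose, 9 fell), where 4847 of all probe sets did. In numbers 11 to 20 alone 1 passed in corn oil and 3 in DBCP rats, where 385 and 505 of all probe sets did. With the leukocyte level as a covariate 19 members were higher in DBCP rats at the end of exposure. In that contrast 3682 of all probe sets passed, higher and lower together. Over recovery 2 members passed in corn oil rats and 16 in DBCP rats (2 rose, 14 fell), where 782 and 7141 of all probe sets did. Eif3d in corn oil rats then stood at -0.024 (limma adjusted p = 0.902). With the late spermatid level 24 passed in corn oil rats (all rose) and 19 in DBCP rats (18 rose). Of all probe sets 14031 and 8416 passed there, rises and falls together. Eif2s1 (0.13), Eif3b (0.11), Eif4a2 (0.013) and Eif4h (0.22) changed sign in DBCP rats. The causes were not tested. The members correlated with the late spermatid level numbered 10 without the low-weight arrays, 20 in numbers 1 to 10 and 21 in numbers 11 to 20. Leaving out each array in turn gave 14 to 15 members in corn oil rats, 7 to 13 in DBCP rats (4 to 6 rose, 3 to 8 fell) and 0 in both DBCP comparisons and the interaction.

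With the replicate number as a block (replicate block) 14 members passed in corn oil rats (13 rose, 1 fell), 8 in DBCP rats (4 rose, 4 fell) and 0 in the other comparisons. The numbers share no stated batch, and 41 of 114 same-numbered pairs of arrays had deviations correlated above 0.1 (range -0.49 to 0.57). With the sets 1 to 10 and 11 to 20 as a block the counts were unchanged at 15 and 9.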
